A study of Mus musculus with 24 samples.

Results

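The genes described are 10 members of the TGF-beta and activin pathways, chosen by name: the activin subunits Inhba and Inhbb, the ligands Tgfb1, Tgfb2 and Tgfb3, the receptors Tgfbr1 and Tgfbr2, the TGF-beta-induced protein gene Tgfbi, and the inhibitors Fst and Smad7. All 10 are among the 12394 genes measured on 24 Affymetrix Mouse430A_2 arrays of mouse thyroid tissue, and 20 probe sets read them. The arrays hold 9 recurrent tumours, 5 anaplastic thyroid cancers (ATC, undifferentiated), 4 papillary thyroid cancers (PTC, differentiated) and 6 pools of normal thyroid glands. The series title concerns mouse anaplastic tumours that resist inactivation of BRAF, a kinase of the MAPK cascade, and the labels list no treatment protocol. Of the normal pools, 4 have WT in their titles and 2 have Cre. The age, the alleles and the driver of each tumour group are not stated in the labels, nor whether each tumour came from its own mouse. The p-values therefore measure the spread between these samples, which may be technical.

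TGF-beta and activin ligands are secreted dimers that bind a type II receptor, which then phosphorylates a type I receptor, and the active receptor passes the signal to SMAD2 and SMAD3 in the cytoplasm. Follistatin, the product of Fst, binds activin outside the cell, and SMAD7 blocks the type I receptor inside it and is itself induced by the signal. In thyroid follicular cells TGF-beta and activin are known as inhibitors of growth, and in carcinomas TGF-beta is known for inducing matrix genes and mesenchymal features.

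Promoter windows are shown for the ligand genes that had one, which leaves out Tgfb3. Between ATC and PTC the activin subunits Inhba and Inhbb differ in opposite directions, while Tgfb1 and Tgfb2 go with Inhba. Whether the promoters bear on this was not tested. Each window runs from 250 bases before to 50 after the RefSeq gene start, on the strand of the gene, in GRCm38.p6. Capitals mark a TATA box (TATAAA), a GC box (GGGCGG), an AP-1 element (TGANTCA) or a CAGA element (CAGACA), searched on both strands, and these motifs did not overlap one another here. The Inhba window is chr13:16011601-16011900, plus strand, that of Inhbb chr1:119422199-119422498, minus strand, that of Tgfb1 chr7:25686752-25687051, plus strand, and that of Tgfb2 chr1:186705940-186706239, minus strand.
Inhba: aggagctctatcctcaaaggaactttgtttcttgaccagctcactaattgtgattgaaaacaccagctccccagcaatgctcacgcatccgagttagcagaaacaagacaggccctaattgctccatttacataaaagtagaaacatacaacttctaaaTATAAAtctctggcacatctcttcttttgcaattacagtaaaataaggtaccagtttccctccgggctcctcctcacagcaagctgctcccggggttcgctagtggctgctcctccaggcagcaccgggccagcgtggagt
Inhbb: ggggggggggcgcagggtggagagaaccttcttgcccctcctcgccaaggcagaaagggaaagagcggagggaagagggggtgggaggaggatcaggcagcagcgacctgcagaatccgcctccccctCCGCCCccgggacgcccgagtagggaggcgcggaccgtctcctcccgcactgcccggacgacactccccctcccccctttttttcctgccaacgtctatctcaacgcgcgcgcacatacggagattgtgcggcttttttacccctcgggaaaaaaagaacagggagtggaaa
Tgfb1: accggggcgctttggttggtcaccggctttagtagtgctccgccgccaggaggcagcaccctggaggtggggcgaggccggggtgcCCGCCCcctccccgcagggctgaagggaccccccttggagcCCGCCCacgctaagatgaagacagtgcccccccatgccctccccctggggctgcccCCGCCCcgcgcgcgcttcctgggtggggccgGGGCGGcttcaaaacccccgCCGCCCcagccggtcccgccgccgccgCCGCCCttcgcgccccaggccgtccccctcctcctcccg
Tgfb2: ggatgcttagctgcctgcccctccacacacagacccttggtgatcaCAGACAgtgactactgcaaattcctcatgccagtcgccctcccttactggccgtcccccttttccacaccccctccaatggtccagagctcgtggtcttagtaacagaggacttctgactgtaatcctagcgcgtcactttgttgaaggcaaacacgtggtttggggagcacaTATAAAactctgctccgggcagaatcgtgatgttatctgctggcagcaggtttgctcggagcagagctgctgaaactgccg
Only letters were matched, and whether any match acts in transcription was not tested. The Inhba window holds 1 match to the TATA box letters, which begins 91 bases before the start, and no GC box. The Tgfb2 window holds 1 TATA box, 31 bases before the start, and 1 CAGA element. Inhbb has 1 GC box and Tgfb1 has 6, and neither has a TATA box. The AP-1 element was in none of the 4. Of 32851 promoter windows of this length, 13.6% hold the TATA box, 35.7% the GC box, 7.81% the AP-1 element and 21.0% the CAGA element. GC content was 47.7% in Inhba, 64.3% in Inhbb, 77% in Tgfb1 and 54.3% in Tgfb2, where the median window has 52.7%.

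Some arrays stand apart. Braf, whose product the study inactivates, was at 11.14 (log2) on the array labelled recurrent 2, within the ATC range of 10.29 to 11.98, while the other 8 recurrent arrays lay between 5.62 and 7.14. The mean of 7 measured thyroid follicular markers was 4.95 to 8.55 in recurrent tumours, 5.23 to 8.10 in ATC, 8.34 to 9.17 in PTC and 10.39 to 10.97 in normal pools, and ATC 4 and recurrent 4 were the highest of their groups. Normal pool 5 had a macrophage marker mean of 9.84, against 7.99 to 8.50 in the other pools, and an adipocyte marker mean of 8.30, against 10.68 to 11.01. Array titles form a JK series (3 recurrent, 2 ATC, 4 PTC and 4 normal arrays) and others (6 recurrent, 3 ATC and 2 normal arrays). Outside the JK series the normal arrays are the Cre pools and every tumour has a bare-number title. There a difference of tumours from normal pools cannot be told apart from one between kinds of title. The 3' minus 5' signal of the Gapdh control, which depends on RNA integrity, was 0.36 to 1.07 on recurrent JK arrays and -0.02 to 0.17 on the other recurrent ones. In ATC, JK arrays had 0.82 to 0.96 and the others 0.07 to 0.15, while PTC had 1.11 to 1.60 and normal pools 0.64 to 0.98. Every PTC array lay above all other arrays, so PTC tissue and this signal cannot be fully told apart. That limits the comparisons of PTC below that use the signal as a covariate. The 2 Cre pools alone spanned 0.64 to 0.98.

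Levels below are log2 intensities, so a difference of 1 is a 2-fold change, and each gene is read through its probe set with the highest mean. Differences were tested with limma over all 12394 genes and called under an adjusted p of 0.05. Levels of different genes are not set against each other, since probe sets differ in their response.

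**Figure D1:**
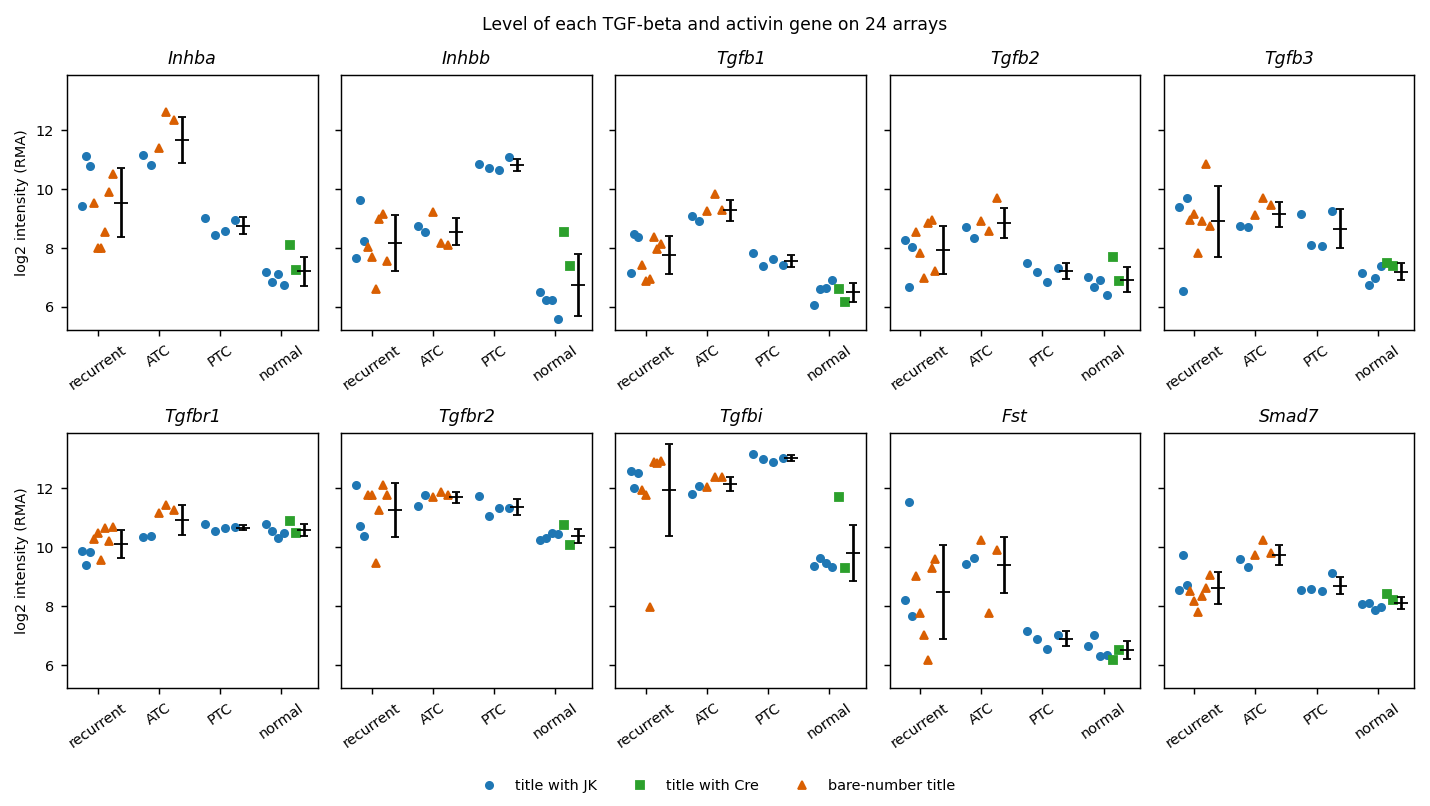
Log2 intensity (RMA) of each of the 10 genes on every array, in recurrent tumours, ATC, PTC and normal pools. Points are arrays, marked by the kind of title, and bars give the mean and SD of a group. Inhba is highest in ATC, Inhbb and Tgfbi are highest in PTC, and the recurrent arrays spread widely in Fst, Tgfbi and Tgfb3.

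Inhba encodes the beta-A subunit, which pairs with itself to form activin A. Its level was 7.99, 9.53 and 11.13 in recurrent tumours (lowest, median and highest of 9), 11.18, 10.81, 11.41, 12.63 and 12.34 in the 5 ATC, 9.04, 8.46, 8.59 and 8.97 in the 4 PTC, and 6.74, 7.15 and 8.11 in normal pools (lowest, median and highest of 6). All ATC and all PTC arrays lay above all normal pools, and all ATC above all PTC. Inhba was higher in ATC than in normal pools by 4.47 ± 0.50 (SE), or 22.1-fold (limma adjusted p = 6.42e-07), and the difference was 4.02 within the JK series and 4.45 outside it. ATC exceeded PTC by 2.91 ± 0.55 (limma adjusted p = 0.000772). The 1.56 ± 0.53 between PTC and normal pools was not called (limma adjusted p = 0.0511), though the 10 arrays fitted alone called it (limma adjusted p = 0.000325), as did the fit without normal pool 5, the highest pool (1.74, limma adjusted p = 0.0344).

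Recurrent tumours had less Inhba than ATC, by -2.13 ± 0.46 (limma adjusted p = 0.00744), and more than normal pools, by 2.33 ± 0.43 or 5.04-fold (limma adjusted p = 0.000231). JK arrays gave 3.48 for the excess over normal pools, and arrays outside the series 1.41. Recurrent 2 and 3, both of the JK series, were the highest recurrent arrays at 11.13 and 10.78, and recurrent 5 and 6 were the lowest, both within the range of normal pools. The difference from ATC was -0.54 within the JK series and -3.04 outside it, and a fit of recurrent and ATC arrays alone did not call it (limma adjusted p = 0.101). The spread among recurrent tumours was 1.17 (SD, n = 9), against 0.78 (n = 5) in ATC.

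Inhbb encodes the beta-B subunit, which forms activin B and, with the beta-A subunit, activin AB. It was at 6.60, 8.05 and 9.64 in recurrent tumours (lowest, median, highest), 8.74, 8.55, 9.22, 8.16 and 8.11 in ATC, 10.87, 10.72, 10.65 and 11.11 in PTC, and 5.61, 6.37 and 8.53 in normal pools (lowest, median, highest). Every PTC array was higher than every array of the other 3 groups. PTC exceeded normal pools by 4.09 ± 0.51, or 17.0-fold (limma adjusted p = 9.66e-06), and ATC fell below PTC by 2.28 ± 0.53, with a limma adjusted p of 0.00422. Between ATC and PTC, Inhba and Inhbb thus differed in opposite directions. With the Gapdh signal as a covariate the lower Inhbb in ATC was -1.88 and not called (limma adjusted p = 0.111).

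Inhbb was also higher in ATC than in normal pools, by 1.81 ± 0.47 (limma adjusted p = 0.00506), although ATC and normal pools overlapped. The 2 Cre pools were at 8.53 and 7.39, above the 4 WT pools, which lay between 5.61 and 6.50. Within the JK series, whose pools are the WT ones, the ATC difference was 2.50, and outside it 0.53 (limma adjusted p = 0.689). Recurrent tumours lay below PTC by -2.65 ± 0.47 (limma adjusted p = 0.000299), with no overlap. With the Gapdh covariate that difference was -2.18 and not called (limma adjusted p = 0.0675). They lay above normal pools by 1.43 ± 0.41 (limma adjusted p = 0.00971), a difference of 2.38 within the JK series and 0.05 outside it. Against ATC the difference was -0.37, with an interval of -1.28 to 0.53 and no call (limma adjusted p = 0.712). A dimmer Inhbb probe set differed by 0.34 between PTC and normal pools and was not called in any of the 6 comparisons (lowest limma adjusted p = 0.111).

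Tgfb1 encodes TGF-beta 1, the most studied of the ligands and one released in latent form. It was at 6.89, 7.97 and 8.48 in recurrent tumours (lowest, median, highest), 9.09, 8.91, 9.26, 9.84 and 9.30 in ATC, 7.84, 7.38, 7.64 and 7.44 in PTC, and 6.08, 6.61 and 6.91 in normal pools (lowest, median, highest). ATC lay above each other group on every array, and PTC above every normal pool. ATC exceeded normal pools by 2.78 ± 0.28, or 6.87-fold (limma adjusted p = 1.55e-07), with 2.45 within the JK series and 3.08 outside it. ATC exceeded PTC by 1.71 ± 0.31 (limma adjusted p = 0.000487), and PTC exceeded normal pools by 1.07 ± 0.30 (limma adjusted p = 0.0162). The PTC call was lost without PTC 1 (0.99, limma adjusted p = 0.0601) and with the Gapdh covariate (1.10, limma adjusted p = 0.0632).

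Recurrent tumours fell below ATC in Tgfb1 by 1.53 ± 0.26 (limma adjusted p = 0.000841), and it was the only one of the 10 genes in which these groups did not overlap. The difference was -0.99 within the JK series and -1.84 outside it, and limma called neither (adjusted p = 0.112 and 0.0754). The 14 arrays fitted alone called it (limma adjusted p = 0.0282). Recurrent tumours stayed above normal pools, by 1.25 ± 0.24 (limma adjusted p = 0.000345), with 8 of 9 arrays above the highest pool, and the difference was 1.45 in the JK series and 1.23 outside it. From PTC they differed by 0.18, with an interval of -0.39 to 0.75.

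Tgfb2, the ligand known for its part in heart and eye development, was at 6.69, 8.04 and 8.95 in recurrent tumours (lowest, median, highest), 8.71, 8.34, 8.92, 8.59 and 9.69 in ATC, 7.51, 7.19, 6.86 and 7.33 in PTC, and 6.41, 6.89 and 7.68 in normal pools (lowest, median, highest). ATC stood above PTC and above normal pools without overlap, while PTC and normal pools overlapped. ATC exceeded normal pools by 1.92 ± 0.36 (limma adjusted p = 0.000242) and PTC by 1.63 ± 0.40 (limma adjusted p = 0.00619), the second not called with the Gapdh covariate (limma adjusted p = 0.0944). PTC differed from normal pools by 0.29, with an interval of -0.50 to 1.08. Recurrent tumours exceeded normal pools by 1.00 ± 0.31 (limma adjusted p = 0.0151), a call lost with the kind of title as a block (0.87, limma adjusted p = 0.111) or with the Gapdh covariate (limma adjusted p = 0.0609). The other 2 probe sets gave ATC differences of 2.49 and 2.11 from normal pools.

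Tgfb3, the ligand known from palate fusion, was at 6.55, 8.97 and 10.85 in recurrent tumours (lowest, median, highest), 8.76, 8.72, 9.12, 9.69 and 9.45 in ATC, 9.17, 8.11, 8.07 and 9.27 in PTC, and 6.75, 7.27 and 7.49 in normal pools (lowest, median, highest). ATC and PTC both lay wholly above normal pools and overlapped each other. ATC exceeded normal pools by 1.95 ± 0.48, or 3.86-fold (limma adjusted p = 0.00299), and recurrent tumours did so by 1.71 ± 0.42 (limma adjusted p = 0.00292). Within the JK series neither was called, at 1.67 and 1.48 (limma adjusted p = 0.0947 and 0.0768). The 1.46 of PTC over normal pools was not called (limma adjusted p = 0.06), but the 10 arrays fitted alone called it (limma adjusted p = 0.000904). Recurrent 2 was below every normal pool and recurrent 8 above every other array of the series.

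Tgfbr1 encodes the type I receptor kinase. It was at 9.39, 10.21 and 10.69 in recurrent tumours (lowest, median, highest), 10.36, 10.40, 11.18, 11.44 and 11.26 in ATC, 10.78, 10.57, 10.66 and 10.67 in PTC, and 10.32, 10.52 and 10.90 in normal pools (lowest, median, highest). The 4 groups overlapped for the most part, and the differences were the smallest of the 10 genes in both tumour types against normal pools. PTC differed from normal pools by 0.08 (interval -0.43 to 0.60) and ATC by 0.34 (interval -0.14 to 0.82), and limma called neither (adjusted p = 0.907 and 0.279). In ATC the 2 JK arrays read 10.36 and 10.40 and the other 3 read 11.18 to 11.44, so that the ATC difference was -0.16 within the JK series and 0.60 outside it.

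Recurrent tumours were lower than ATC in Tgfbr1, by -0.82 ± 0.21 (limma adjusted p = 0.0294), with -0.68 in the JK series and -0.98 outside it. The call was lost without ATC 3, 4 or 5 (limma adjusted p = 0.0948, 0.0811 and 0.105) and when the 14 arrays were fitted alone (limma adjusted p = 0.217). Against normal pools and PTC the recurrent differences were -0.48 and -0.56, which limma did not call (adjusted p = 0.0712 and 0.0854) but did within the JK series, at -0.83 and -0.97 (adjusted p = 0.000924 and 0.000551). The 2 dimmer Tgfbr1 probe sets, at mean levels of 4.16 to 4.66, were not called in any comparison.

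Tgfbr2 encodes the type II receptor that binds the ligand first. It was at 9.46, 11.77 and 12.12 in recurrent tumours (lowest, median, highest), 11.40, 11.76, 11.70, 11.89 and 11.78 in ATC, 11.75, 11.06, 11.32 and 11.34 in PTC, and 10.07, 10.38 and 10.76 in normal pools (lowest, median, highest). All ATC and all PTC arrays were above all normal pools, and recurrent 6 was below them. ATC exceeded normal pools by 1.32 ± 0.35, or 2.50-fold (limma adjusted p = 0.00517), with 1.21 in the JK series and 1.38 outside it. The dimmer Tgfbr2 probe sets, at ATC means of 3.21 and 6.09, gave -0.16 and 0.34 for the same difference. Neither was called in any comparison. PTC exceeded them by 0.98 ± 0.37, not called in the fit of all arrays (limma adjusted p = 0.0816) but called in that of the 10 arrays (limma adjusted p = 0.00034). The recurrent difference from normal pools, 0.88 ± 0.30 (limma adjusted p = 0.028), was 0.71 in the JK series and 0.95 outside it, and the call was lost without any of recurrent 1, 8 or 9 or normal 1, 2 or 6 (limma adjusted p = 0.051 to 0.0634) and in the 15 arrays alone (limma adjusted p = 0.085).

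Tgfbi encodes a secreted matrix protein first found as a gene induced by TGF-beta. It was at 7.99, 12.53 and 12.94 in recurrent tumours (lowest, median, highest), 11.81, 12.10, 12.06, 12.40 and 12.38 in ATC, 13.17, 13.00, 12.91 and 13.02 in PTC, and 9.29, 9.42 and 11.71 in normal pools (lowest, median, highest). Normal pool 5 was the one high pool, the others reaching 9.65, and recurrent 6 was the one low tumour, below every pool. Tgfbi rose in PTC by 3.22 ± 0.67 or 9.33-fold over normal pools (limma adjusted p = 0.00202), in ATC by 2.35 ± 0.63 or 5.09-fold (limma adjusted p = 0.00567), and in recurrent tumours by 2.15 ± 0.55 or 4.43-fold (limma adjusted p = 0.00399). All 4 PTC arrays exceeded all 5 ATC arrays, a difference of ATC from PTC of -0.87 that was not called over 24 arrays (limma adjusted p = 0.43) and was called over these 9 alone (limma adjusted p = 0.00109). Without recurrent 2 and 6 the recurrent call against normal pools had a limma adjusted p of 6.35e-07. That setting was chosen after seeing the data and leaves out the 1 low tumour, so the smaller value adds no support. The recurrent difference from normal pools was 2.92 in the JK series and 1.24 outside it, where limma did not call it (adjusted p = 0.616). The 4 probe sets of Tgfbi differed between PTC and normal pools by 2.88 to 3.22.

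Fst encodes follistatin. It was at 6.18, 8.21 and 11.55 in recurrent tumours (lowest, median, highest), 9.44, 9.63, 10.26, 7.77 and 9.91 in ATC, 7.14, 6.88, 6.56 and 7.02 in PTC, and 6.19, 6.44 and 7.04 in normal pools (lowest, median, highest). ATC lay above PTC and above normal pools, with ATC 4 the lowest in Fst and the highest in Inhba. Fst was higher in ATC than in normal pools by 2.89 ± 0.64 or 7.42-fold (limma adjusted p = 0.00121), the same difference being 2.95 in the JK series and 2.96 outside it. ATC exceeded PTC by 2.50 ± 0.71 (limma adjusted p = 0.0165), a call lost without PTC 3 (limma adjusted p = 0.0508) or with the Gapdh covariate (limma adjusted p = 0.099). PTC and normal pools differed by 0.39, with an interval of -1.02 to 1.79. Recurrent tumours exceeded normal pools by 1.97 ± 0.55 (limma adjusted p = 0.00836), with 2.56 in the JK series and 1.79 outside it, and covered a 41.4-fold range, from recurrent 7, just below the lowest normal pool, to recurrent 2, above every ATC array.

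Smad7 encodes the inhibitory SMAD. It was at 7.82, 8.54 and 9.74 in recurrent tumours (lowest, median, highest), 9.59, 9.33, 9.73, 10.25 and 9.82 in ATC, 8.55, 8.57, 8.51 and 9.13 in PTC, and 7.87, 8.10 and 8.42 in normal pools (lowest, median, highest). ATC lay above PTC and PTC above normal pools, with no overlap at either step. ATC exceeded normal pools by 1.63 ± 0.24, or 3.10-fold (limma adjusted p = 2.14e-05), with 1.45 in the JK series and 1.61 outside it, and exceeded PTC by 1.05 ± 0.27 (limma adjusted p = 0.00838). In the JK series the second missed the threshold (0.77, limma adjusted p = 0.1), as it did with the Gapdh covariate (limma adjusted p = 0.0573). Against normal pools, PTC differed by 0.58 (limma adjusted p = 0.148) and recurrent tumours by 0.50 (limma adjusted p = 0.0679), and neither was called. Recurrent tumours were lower than ATC by -1.13 ± 0.22 (limma adjusted p = 0.00382), with 8 of 9 below the lowest ATC array and recurrent 2 within the ATC range. That difference was -0.46 in the JK series and -1.51 outside it, and the 14 arrays alone did not call it (limma adjusted p = 0.0736).

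**Figure D2:**
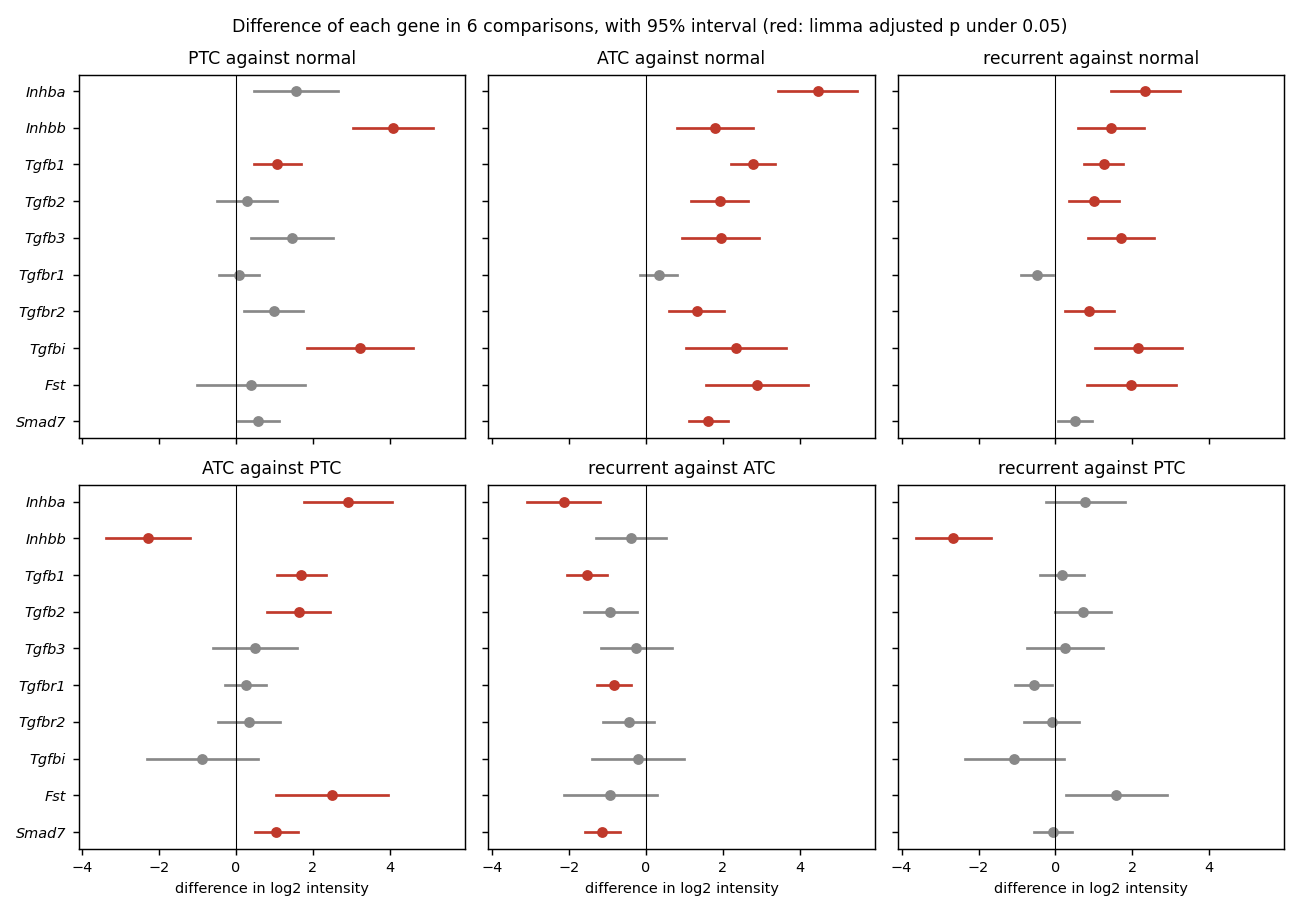
Difference in log2 intensity of each gene, first-named group minus the other, in 6 comparisons, with the 95% interval of the fit of all 24 arrays. Red points passed a limma adjusted p of 0.05. In ATC against normal pools 9 of 10 genes are red and to the right of 0, and in recurrent tumours against ATC the 4 red genes lie to the left.

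Counted over the 10 genes, ATC against normal pools had 9 higher and 0 lower, Tgfbr1 being the one not called, where limma called 15.1% of all genes higher and 19.1% lower. Their median difference was 1.93, against -0.08 over all genes. In the JK series limma called 8 of the 10, and 3921 of all 12394 genes in either direction. In the 5 arrays outside it limma called 3 (Inhba, Tgfb1 and Smad7) and 759 of all 12394 genes. Inhbb, Tgfb2, Tgfb3, Tgfbr2, Tgfbi and Fst were not called there, with limma adjusted p from 0.109 to 0.689. In 8 of the 10 the ATC and normal arrays did not overlap, where 14.9% of all genes had ATC wholly higher. PTC against normal pools had 3 higher (Inhbb, Tgfb1 and Tgfbi) and 0 lower, with 6.16% of all genes called higher and 8.03% lower, and a median of 1.03 against -0.01. In 7 of 10 all PTC arrays were above all pools, where 14.6% of all genes were. The fit of the 10 PTC and normal arrays alone called these 7, and 5676 of all 12394 genes, against 1758 in the fit of 24 arrays. The latter shares a spread that includes the more variable recurrent tumours, so its p-values for PTC against normal pools tend to be too large.

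Recurrent tumours against normal pools had 8 higher and 0 lower, where 14.5% of all genes were called higher and 19.3% lower, and a median of 1.34 against -0.03. In 0 of the 10 were the arrays of these groups apart, while 2.9% of all genes had recurrent tumours wholly higher. Within the 8 arrays outside the JK series limma called 0 of the 10 genes, and 503 of all 12394. ATC against PTC had 5 higher (Inhba, Tgfb1, Tgfb2, Fst and Smad7) and 1 lower (Inhbb), where 7.81% of all genes were called higher and 9.35% lower, and with the Gapdh covariate 2 were called. All PTC arrays are of the JK series, and within it ATC differed from PTC by 2.23 in Inhba, -2.19 in Inhbb, 1.43 in Tgfb1, 1.31 in Tgfb2 and 2.63 in Fst. ATC lay wholly above PTC in 5 and wholly below in 2 (Inhbb and Tgfbi), where 15.0% and 17.5% of all genes did. Recurrent tumours against ATC had 0 higher and 4 lower (Inhba, Tgfb1, Tgfbr1 and Smad7), where 1.19% of all genes were called higher and 3.12% lower, with a median of -0.87 against 0.05. Recurrent tumours lay wholly below ATC in 1 (Tgfb1), where 0.686% of all genes did. Of these 4 only Tgfb1 was called by a fit of the 14 arrays alone. Recurrent tumours against PTC had 0 higher and 1 lower (Inhbb), where limma called 9.71% of all genes higher and 12.1% lower. In Inhbb they lay wholly below PTC, as 5.51% of all genes did. With the Gapdh covariate Inhbb was not called, and the 1 gene called was Tgfbr1 (-1.33, limma adjusted p = 0.0124). The comparisons with normal pools share the same 6 pools, the other comparisons share tumour arrays with them, and the choice of these genes was made with earlier results known.

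**Figure D3:**
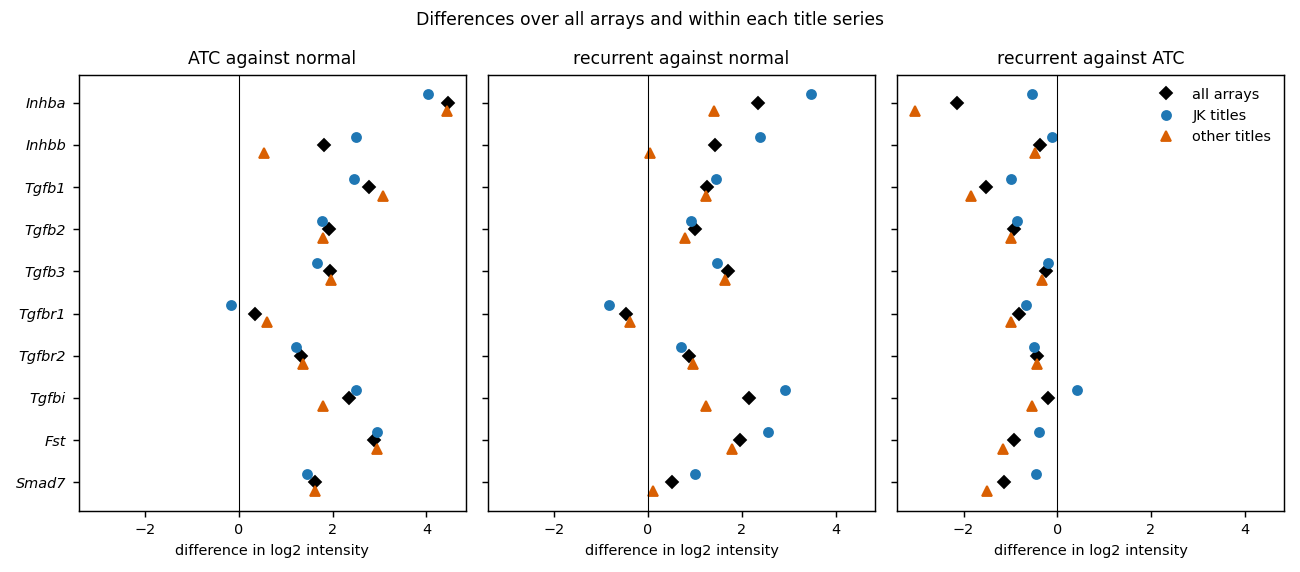
Difference in log2 intensity of each gene over all arrays (diamonds), within arrays with JK in the title (circles) and within the other arrays (triangles), for ATC against normal pools, recurrent tumours against normal pools and recurrent tumours against ATC. PTC is absent outside the JK series and is not shown. Outside that series the pools are all Cre pools and the tumours all have bare-number titles. Inhba in recurrent tumours against ATC is at -0.54 in the JK series and -3.04 outside it.

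Over all genes, the median SD was 0.52 in the 9 recurrent tumours, against 0.27 in ATC, 0.14 in PTC and 0.18 in normal pools. Since the fit shares 1 spread over the groups, its p-values for recurrent tumours against ATC and normal pools tend to be too small. Between groups of small spread, such as PTC and normal pools, they tend to be too large. The SD among recurrent tumours was 1.59 for Fst and 1.55 for Tgfbi, at or above that of 94.4% and 94.0% of all genes. It was 1.19 for Tgfb3 and 1.17 for Inhba, and 0.47 for Tgfbr1 and 0.55 for Smad7, the 2 lowest. Recurrent 2, the array with Braf in the ATC range, was the highest recurrent array in Inhba, Inhbb, Tgfb1, Fst and Smad7 and the lowest in Tgfb2, Tgfb3 and Tgfbr1. Recurrent 8 was the highest in Tgfb2, Tgfb3 and Tgfbr2.

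Measured against the highest normal pool, recurrent 8 exceeded it in 9 of 10 genes, and recurrent 1 and 4 did so in 8. Recurrent 3, 7 and 9 did so in 7, recurrent 2 in 6 and recurrent 5 in 5. Recurrent 6 did so in 2 (Tgfb1 and Tgfb3) and lay below every pool in 4. Over all genes, 25.4% to 43.0% were above every pool on a recurrent array. On recurrent 6, 28.7% of all genes were above and 35.9% below every pool, so that 4 of 10 below is near the share of all genes. Recurrent 2 had marker means of 10.15 for fibroblasts and 7.89 for epithelium, the lowest of the recurrent arrays in both. The marker means of recurrent 6 were 7.64 for macrophages and 10.18 for fibroblasts, below every ATC array, and 11.38 for epithelium, the highest of the recurrent arrays. Each ATC array exceeded the pools in 9 or 10 genes, where 29.0% to 32.2% of all genes did, and each PTC array in 7 or 8, where 24.6% to 26.7% did. Leaving out recurrent 2 and 6 was chosen after seeing the data and drops the array with the fewest of the 10 genes above the pools. A higher count of these genes against normal pools without them is therefore no support. In that setting limma called 9 of the 10 genes higher than in normal pools, with 4911 of all genes called in either direction. It called 4 lower than in ATC, with 1088 of all genes, against 535 with both arrays.

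**Figure D4:**
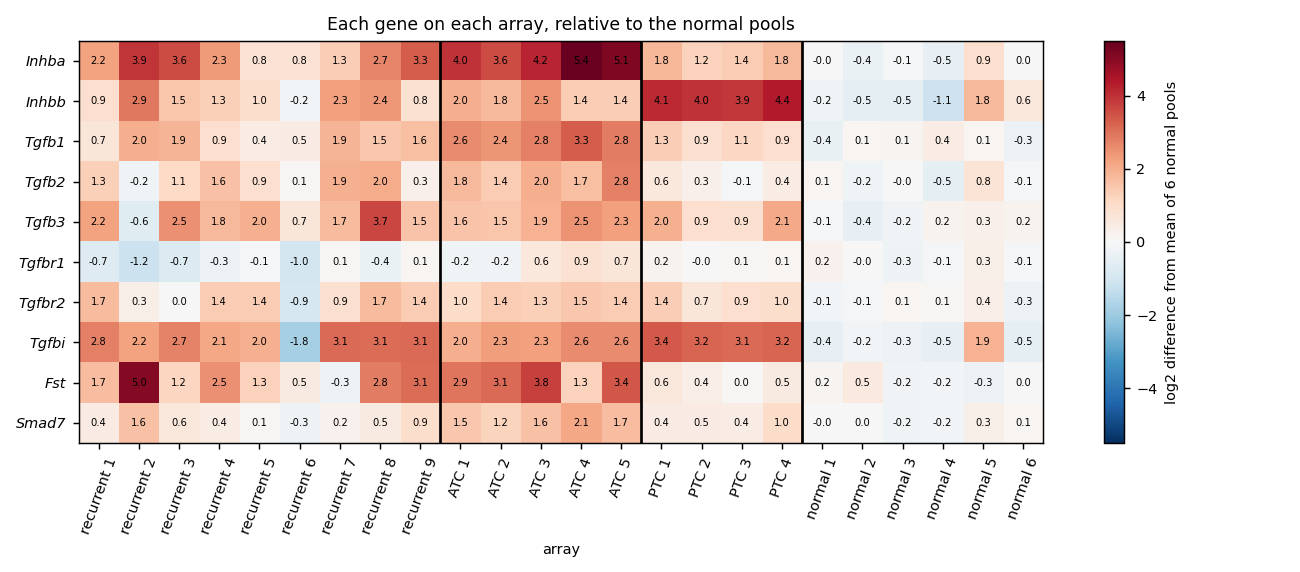
Difference in log2 intensity of each gene on each of the 24 arrays from its mean over the 6 normal pools, with recurrent, ATC, PTC and normal arrays from left to right. Cells give the difference to 1 decimal. ATC columns are red in all rows but Tgfbr1, recurrent 6 is pale or blue in most rows, and normal pool 5 is raised in Inhbb and Tgfbi.

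Beyond the 10 genes, 68 other genes of the pathways were read, in lists of ligands, receptors, SMADs, latency and activation, inhibitors, and response genes. In ATC against normal pools 29 of 68 were higher and 5 lower, where 15.1% and 19.1% of all genes were. In PTC 11 were higher and 2 lower than in normal pools, where 6.16% and 8.03% of all genes were. In recurrent tumours 16 were higher and 11 lower than in normal pools, where 14.5% and 19.3% of all genes were. Against ATC, 0 were higher and 10 lower in recurrent tumours, where 1.19% and 3.12% of all genes were. Of the response genes, 16 of 18 were higher and 0 lower in ATC against normal pools, with a median difference of 1.95. They included collagen Col1a1 (4.87, limma adjusted p = 1.37e-06), fibronectin Fn1 (4.02, limma adjusted p = 1.55e-07), the cyclin-dependent kinase inhibitor Cdkn2b (3.06, limma adjusted p = 4.53e-05) and the matrix protein Postn (2.93, limma adjusted p = 0.00018), of which Col1a1 and Postn are also fibroblast markers. In PTC 5 of 18 were higher than in normal pools and in recurrent tumours 9 were higher and 2 lower. Against ATC, 4 response genes were lower in recurrent tumours and 0 higher, and they were Pmepa1 (-1.63, limma adjusted p = 0.00269), an inhibitor of SMAD signalling, Cdkn2b (-1.60, limma adjusted p = 0.0419), the smooth muscle protein gene Tagln (-1.59, limma adjusted p = 0.0112) and Id2 (-1.42, limma adjusted p = 0.0457), an inhibitor of differentiation.

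Of 11 other ligands, 2 were higher in ATC than in normal pools and 0 lower, and in PTC 1 was higher and 0 lower. These counts are near the shares of all genes (15.1% and 6.16% higher), and the list's median differences were -0.12 in ATC and -0.04 in PTC. The bone morphogenetic protein gene Bmp2 was higher in ATC than in normal pools by 4.07 (limma adjusted p = 5.23e-05) and lower in recurrent tumours than in ATC by -2.85 (limma adjusted p = 0.00654). Bmp7 followed the same directions, at 2.28 and -2.51 (limma adjusted p = 0.000914 and 0.00158), and Bmp4 was higher in PTC than in normal pools by 1.64 (limma adjusted p = 0.00842). Among receptors, Acvrl1, an endothelial type I receptor, was lower than in normal pools in recurrent tumours (-2.04), ATC (-2.07) and PTC (-1.92), with limma adjusted p up to 6.92e-07. Acvr1, a receptor for bone morphogenetic proteins, was higher in ATC by 1.91 (limma adjusted p = 0.000308), and the activin receptors Acvr2b (-1.24, limma adjusted p = 0.000611) and Acvr2a (-0.54, limma adjusted p = 0.0463) were lower. Of the SMADs, the inhibitory Smad6 was lower than in normal pools in recurrent tumours (-2.01, limma adjusted p = 5.73e-06) and in ATC (-1.32, limma adjusted p = 0.00191), while its relative Smad7 was higher in ATC. The SMAD that carries the signal, Smad2, was higher by 0.63 in ATC (limma adjusted p = 0.0155) and lower by -0.67 in PTC (limma adjusted p = 0.0344).

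In the list of latency and activation of TGF-beta, 4 of 10 genes were higher in ATC than in normal pools and 0 lower. Over all genes the shares were 15.1% and 19.1%. The 4 were Ltbp2 (2.38, limma adjusted p = 0.00208), the metalloproteinase Bmp1 (2.32, limma adjusted p = 1.54e-05), thrombospondin Thbs1 (1.79, limma adjusted p = 0.0078) and the convertase Furin (1.66, limma adjusted p = 4.55e-05), which cleaves the precursors. Ltbp2, of the latent binding protein family, is also in the list of response genes and counts in both. In recurrent tumours 3 of 10 were lower than in ATC, where 3.12% of all genes were, and Ltbp3 was the largest (-1.66, limma adjusted p = 0.00102). Of 12 further inhibitors 5 were higher and 1 lower in ATC than in normal pools, and 3 higher and 0 lower in PTC. The shares of all genes higher and lower were 15.1% and 19.1% in ATC and 6.16% and 8.03% in PTC. Grem1, a secreted antagonist of bone morphogenetic proteins, was higher in ATC by 5.08 and in PTC by 5.23 than in normal pools (limma adjusted p = 6.77e-05 and 0.000336). In recurrent tumours it was lower than in ATC by -3.39 (limma adjusted p = 0.0121).

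**Figure D5:**
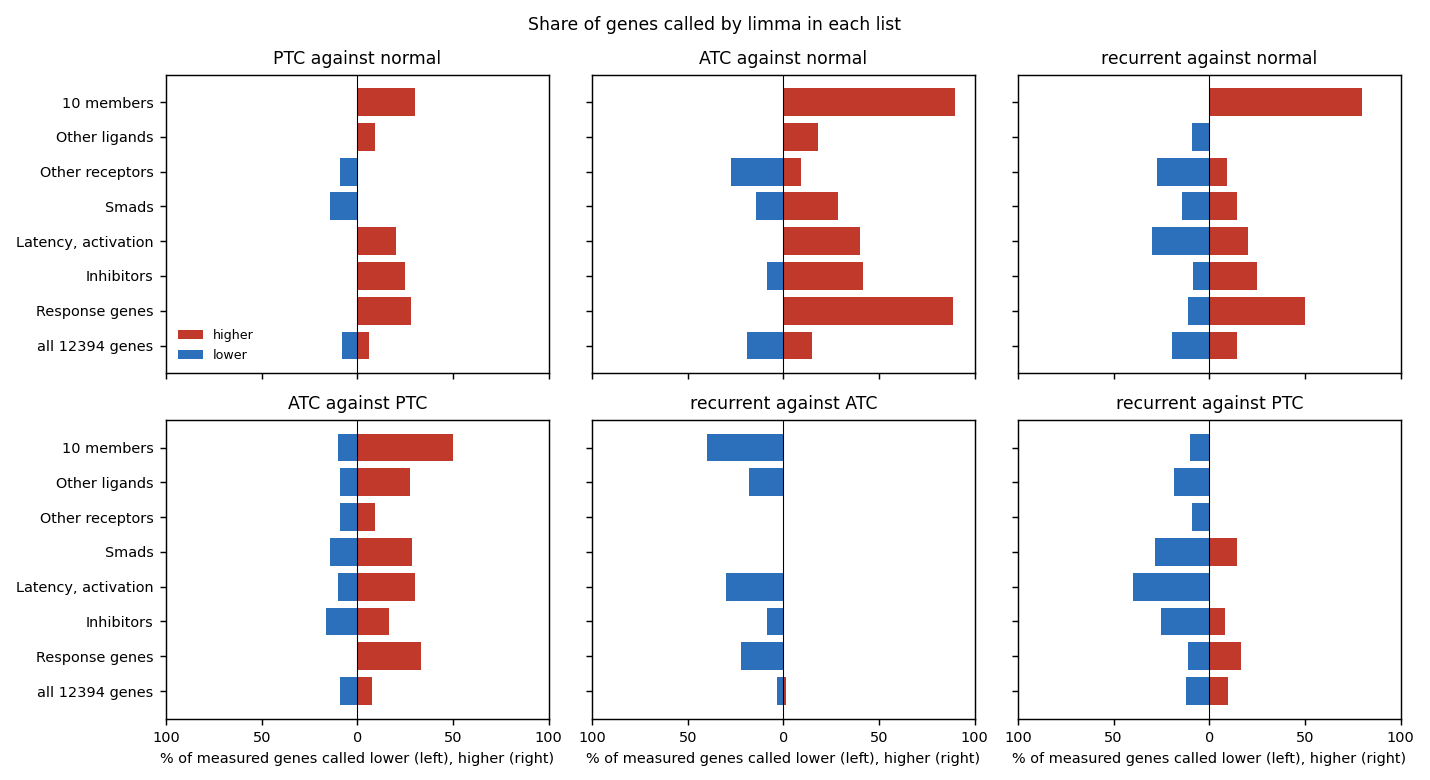
Percent of the measured genes that limma called lower (left of 0) or higher (right of 0) in each comparison, for the 10 members, 6 lists of other pathway genes and all 12394 genes. Response genes reach 16 of 18 in ATC against normal pools, and none of the pathway lists has a gene called higher in recurrent tumours against ATC.

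Markers of cell types also differed between the groups, some lists upward and others downward. For scale, limma called 15.1% of all genes higher and 19.1% lower in ATC than in normal pools. The shares lower than in normal pools were 8.03% in PTC and 19.3% in recurrent tumours, and 3.12% were lower in recurrent tumours than in ATC. The fibroblast marker mean was 10.15 to 12.68 in recurrent tumours, 11.70 to 12.67 in ATC, 10.57 to 11.78 in PTC and 10.01 to 10.50 in normal pools, and 7 of 11 markers were higher in ATC than in normal pools. The macrophage mean was 7.64 to 11.47 in recurrent tumours, 10.52 to 11.28 in ATC, 9.23 to 10.27 in PTC and 7.99 to 9.84 in normal pools, and 11 of 12 markers were higher in ATC. In recurrent tumours against ATC, 1 of 11 fibroblast markers was called lower and 0 higher, and 0 of 12 macrophage markers were called. The epithelial mean was 7.89 to 11.38 in recurrent tumours, against 10.43 to 12.66 in ATC, with 5 of 8 markers lower. The thyroid follicular markers were lower than in normal pools for 7 of 7 in ATC and in recurrent tumours and 4 of 7 in PTC. The adipocyte, C-cell and parathyroid markers were lower than in normal pools for 5 of 5, 4 of 4 and 3 of 3 in both recurrent tumours and ATC, and for 4, 4 and 1 of them in PTC. Single arrays departed from this. The parathyroid mean was 10.91 on recurrent 4, 10.01 on recurrent 5 and 9.23 on ATC 1, against 9.87 to 10.94 in normal pools. The adipocyte mean was 9.17 on recurrent 1, against 8.30 to 11.01 in the pools. The endothelial mean was 6.82 to 8.95 in recurrent tumours, 8.14 to 8.55 in ATC, 7.67 to 7.86 in PTC and 8.18 to 8.69 in normal pools, so that PTC lay wholly below the pools, with 2 of 8 markers called lower. Of 7 neutrophil markers 2 were higher and 1 lower in ATC than in normal pools, and of 7 lymphocyte markers 1 was higher and 1 lower. Of 5 skeletal muscle markers 0 were called in any comparison, but single arrays differed widely. Their mean ran from 5.58 on recurrent 2 and 5.94 on recurrent 3 to 14.39 on recurrent 4, against 9.85 to 12.65 in normal pools. Whether these shifts bear on the 10 genes was not tested, and in tissue RNA fewer cells of a type and less RNA per cell cannot be told apart.

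Likeness to other genes was measured over the 24 arrays as the root mean square difference between log2 values centred on each gene's own mean. The arrays share groups and title series, so these distances are descriptions. Closest to Inhba were Plat, tissue plasminogen activator (0.55), the protease Prss12 (0.65) and the chemokine receptor Ccr1 (0.70), where the SD of Inhba over the arrays is 1.76. With each gene also divided by its SD, Prkg2, a cyclic GMP-dependent kinase, was closest, at 0.32 SD. Closest to Inhbb were the early response gene Egr1 (0.83), Mical1 (0.85) and Nectin3 (0.89), each farther than any of the 3 named for Inhba. For Tgfb1 they were Bmp1 (0.46), the integrin Itgb1 (0.46) and Rai14 (0.48), and by SD units Inhba was first (0.37). For Tgfb3 they were Mxra8 (0.46), collagen Col1a2 (0.47) and Otulinl (0.49), for Fst the homeobox gene En1 (0.64), Mapk6 (0.75) and Stc1 (0.78), and for Tgfbi the cytokine signalling inhibitor Socs3 (0.70), Pdlim4 (0.72) and the macrophage marker Cd68 (0.76).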

How the data were processed

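Total RNA of 9 recurrent tumours, 5 ATC, 4 PTC and 6 pools of normal thyroid was hybridised to 1-colour Affymetrix arrays. The deposited values are log2 intensities that the authors made with RMA in Partek, per the submitters' processing notes; their versions are not given here. RMA equalises the distribution of values between arrays, so a shift of all genes cannot be seen. Of 22690 probe sets, 20393 have 1 gene symbol, 691 have several and 1606 have none in the platform annotation. Symbols of 20364 were updated by gene identifier (GRCm38.p6) and 29 were kept. Each of 12394 genes was read by its brightest probe set on average. Among 276 pairs of arrays, 0 held identical values, and the highest correlation was 0.994.

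Groups follow the tissue labels. The 24 arrays entered 1 limma fit (limma 3.58.1, R 4.3.3) of 4 group means, with Benjamini-Hochberg adjustment over all genes and a threshold of 0.05. Intervals are at 95%. The fit shares 1 spread over all groups. Data with each group's own spread were simulated 1 time per comparison. Unchanged genes clearly made up more of the calls than the threshold allows in recurrent tumours against ATC and against normal pools. The p-values of those comparisons thus tend to be too small. Their share was slightly above the threshold in recurrent tumours and in ATC against PTC, and below it in PTC and in ATC against normal pools. The simulation had fewer changed genes than the data have calls. The number of arrays limits the precision. Alternatives were the 2 groups alone, the title series or kind as a block, arrays within a title series, the Gapdh covariate, array weights, other scalings, probe set rules and filters, and leaving out each array. The members and lists were chosen with earlier results of these data known. All members were named, with up to 4 called genes per list and comparison and the 3 nearest genes of a member. Promoter sequences are from RefSeq (GRCm38.p6), which gave windows for 7 members.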

Additional observations from a re-analysis of the deposited data

Results flagged for a closer look

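In 5 of 44 combinations of a gene and a group examined, the highest or lowest array stood apart from the others by more than Dixon's 95% critical value, where chance gives about 1 in 20. Tgfbi was 7.99 on recurrent 6, against 11.76 on the next lowest recurrent array. Tgfbi was 11.71 in normal pool 5, against 9.65 in the next highest pool, and Inhba was 8.11 in the same pool, against 7.25. Smad7 was 9.13 on PTC 4, against 8.57 on the next highest PTC array. Braf was 11.14 on recurrent 2, against 7.14 on the next highest recurrent array.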

How the results depend on the processing

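No paired analysis was possible because the replicate numbers are names given in record order, so no samples are paired. Of 1500 recomputed differences of the 10 genes, 27 changed sign, none of them among the differences that were called. The cause of these changes was not tested. Over all 24 arrays limma called 535, 4194 and 2706 genes in recurrent tumours against ATC, normal pools and PTC, 4245 and 2127 in ATC against normal pools and PTC, and 1758 in PTC against normal pools, with 4, 8, 1, 9, 6 and 3 of the 10 genes in the same order.

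With the 2 groups alone, genes called were 99 for recurrent against ATC, 1345 for recurrent against PTC, 4587 for ATC against PTC and 5676 for PTC against normal pools, with 1 of the 10 genes for recurrent against ATC and 7 for PTC against normal pools. With the Gapdh covariate they were 1700 for recurrent against PTC, 1294 for ATC against PTC, with 2 of the 10 genes, and 1101 for PTC against normal pools. In the JK series they were 933 for recurrent against ATC, with 1 of the 10, and 3156 for PTC against normal pools, with 5. Recurrent against PTC had 3877 in this series, with 5 of the 10. Outside it they were 41 for recurrent against ATC, with 1, 503 for recurrent against normal pools, with 0, and 759 for ATC against normal pools, with 3. Both title blocks and repeated quantile scaling called 2 of the 10 for recurrent against PTC. Of all genes they called 2344 (title series), 2336 (kind of title) and 2852 (scaling). For PTC against normal pools the scaling called 1862 genes, with 5 of the 10. Array weights called 1360 genes for recurrent against ATC, 5574 for recurrent against PTC, with 4 of the 10, 7357 for ATC against normal pools, 6318 for ATC against PTC, and 6370 for PTC against normal pools, with 7. Without recurrent 2 and 6, a setting chosen after seeing the data, 1088 genes were called for recurrent against ATC. For recurrent against PTC this setting called 3644, with 3 of the 10.

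Leaving out 1 array gave 286 to 844 genes for recurrent against ATC. The count was 335, 298, 286 and 302 without ATC 1, 2, 3 and 5 and 844 without recurrent 2. It gave 1757 to 3393 for recurrent against PTC and 1345 to 2115 for ATC against PTC, both lowest without PTC 2, and 1 to 2 of the 10 genes for recurrent against PTC.

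The sign changes were as follows. Tgfbr1 in ATC against normal pools was -0.0422 with the kind of title as a block and -0.16 in the JK series. Tgfbr1 in ATC against PTC was -0.0751 and -0.18 with the title series and the kind of title as blocks, -0.29 in the JK series and -0.39 with the Gapdh covariate. For recurrent against ATC, array weights gave 0.0542 for Tgfb3, 0.0041 for Tgfbr2 and 0.23 for Tgfbi, leaving out recurrent 2 and 6 gave 0.25 for Tgfb3 and 0.36 for Tgfbi, and the JK series gave 0.42 for Tgfbi. Leaving out 1 array gave -0.48 to 0.0525 for Tgfb3 and -0.32 to 0.30 for Tgfbi. For recurrent against PTC, Tgfb3 was -0.10 and -0.14 with the 2 blocks and -0.10 in the JK series. Tgfbr2 was 0.39 with array weights, 0.23 without recurrent 2 and 6, and -0.21 to 0.12 without 1 array. Smad7 was 0.0497 with the kind of title as a block, 0.31 in the JK series, 0.0444 with the Gapdh covariate, and -0.21 to 0.0711 without 1 array.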
